A study of Mus musculus with 48 samples.

Results

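Voltage-gated ion channel genes were defined by their symbols as the pore-forming and beta subunits of sodium channels (Scn), the voltage-gated, modulatory and sodium- or pH-sensitive potassium channels (Kcna to Kcnd, Kcnf to Kcnh, Kcnq, Kcns to Kcnv), the HCN channels and the pore-forming calcium channel subunits (Cacna1). The rule gave 70 of the 46983 genes in the count tables, in 14 classes, and 67 of them had more than 10 counts over all libraries and entered the tests. Kcna7, Scn4a and Kcnv2 did not, with 3, 3 and 2 counts in all. The data were 48 libraries of mouse brain (C57Black/6 males, 3 months old) after permanent middle cerebral artery occlusion (MCAO), in which the artery is coagulated and cut to give a small cortical infarct. MCAO mice were sampled at 3 h (n = 5), 12 h (n = 5), 24 h (n = 4), day 3 (n = 5) and day 7 (n = 5). Sham mice, operated on in the same way without coagulation, were sampled at the same 5 times (n = 4 each), and intact cortex of unoperated mice served as control (n = 4). No group carried a transgene or drug. The labels and the study's methods for bulk RNA describe the tissue as injured cortex together with spared tissue. The series' design text and the study's results speak of a hemisphere. The libraries are therefore a limited model of the lesion and may hold more than cortex.

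Voltage-gated channels set the excitability of neurons. Sodium channels open the action potential, Kv channels repolarise the membrane and set the firing rate, KCNQ channels carry the M-current that brakes repetitive firing, HCN channels carry a depolarising current at rest, and calcium channels couple firing to transmitter release and gene expression. In ischemia, the failure of ion pumps depolarises neurons, and these channels then pass much of the sodium, potassium and calcium that moves across the membrane. In cortex most of these genes are expressed in neurons, and a piece of tissue with fewer neurons and one with less channel RNA per neuron cannot be told apart in bulk libraries such as these.

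Libraries held 1522668 to 2826735 gene counts, of which 6714 to 20229 fell on the 70 genes. The share of gene counts on these genes was 0.704% ± 0.064 (SD, n = 4) in control cortex, 0.717% ± 0.096 in sham day 7 (n = 4), 0.575% ± 0.031 in MCAO day 3 (n = 5) and 0.530% ± 0.069 in MCAO day 7 (n = 5). The 10 neuronal marker genes summed to between 10268 and 11254 CPM (counts scaled to the library total) in sham day 7 and between 6394 and 9833 CPM in MCAO day 7. Neuronal markers were thus present in all libraries of both groups. An MCAO day 7 library, replicate C, stood apart, with 4083 CPM on 6 markers of infiltrating myeloid cells against 104 to 192 CPM in the other 4, and 5453 CPM on 5 fibroblast markers against 153 to 480 CPM. MCAO day 3 replicate A held 27.8 CPM on the myeloid markers against 237 to 1456 CPM in the other 4. MCAO 12 h replicate E held 1804 CPM on the same markers against 34.5 to 222 CPM in the other 4. Results at day 3 and day 7 are therefore also given without MCAO day 3 replicate A and MCAO day 7 replicate C. At 12 h, 0 channel genes were called against sham whichever library was left out. The 12 h values of single genes given below include replicate E. Markers of regions outside the cortex varied too. The 6 striatal markers that were tested summed to between 146 CPM (MCAO day 7 replicate C) and 3761 CPM (MCAO 24 h replicate D). The latter library had 514 CPM on the cortical excitatory markers against 1196 to 1528 CPM in the other 3 of its group. Choroid plexus markers summed to 502 CPM in control replicate A and to between 0.569 and 6.18 CPM in the other 3 controls. The part of sampled region in the channel values was not tested.

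Control cortex expressed most of the family. Of the 67 genes tested, 21 had a mean over 100 CPM in the 4 control libraries, 25 lay between 10 and 100 CPM, 13 between 1 and 10 CPM, and 8 under 1 CPM. Because the 3′ method counts about 1 tag for each transcript whatever its length, CPM values can be set side by side, although a 3′ end missed by the annotation lowers a gene's value. Scn8a, the sodium channel of the mature axon initial segment and node, was at 536 ± 50.5 CPM (SD, n = 4), Scn2a, the other main sodium channel of excitatory neurons, at 421 ± 35.2 CPM, and Cacna1a, a presynaptic calcium channel, at 324 ± 50.4 CPM. The 4 control libraries of these 3 genes did not overlap, at 497 to 604, 388 to 463 and 276 to 374 CPM. Those of Cacna1a did overlap those of Scn2b (286 to 340 CPM) and Kcnq3 (282 to 328 CPM), so the order of these 3 neighbours did not exceed their spread. Abundant genes of other classes were Kcna2 at 242 CPM, Kcnc1 at 260 CPM, Kcnd2 at 188 CPM and Cacna1d at 124 CPM, and Hcn2 was at 36.8 CPM. Sodium channels of sensory neurons, Scn10a and Scn11a, were at 0.282 and 0.283 CPM.

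**Figure D1:**
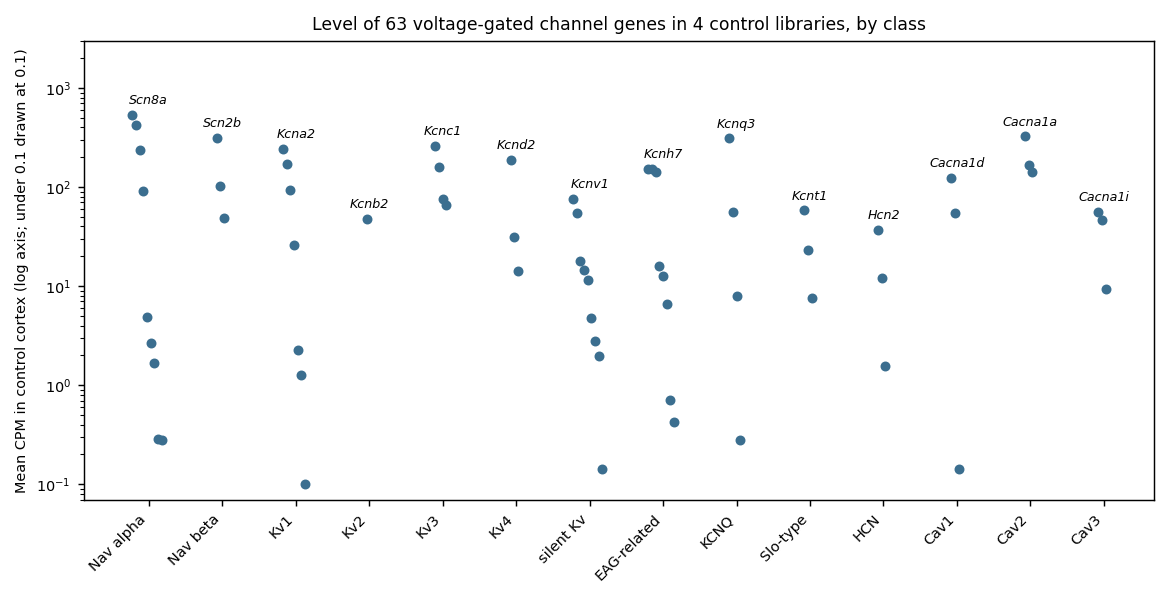
Mean CPM of each of 63 tested voltage-gated channel genes in the 4 control libraries (log axis), arranged by channel class, with the most abundant gene drawn in each class named. Scn8a is drawn at 536 CPM, and 8 of the genes drawn lie under 1 CPM, among them Kcna10, which was at 0 CPM and is drawn at the foot of the axis.

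Each gene was tested for MCAO against sham at each time, MCAO against control, the mean MCAO effect over the 5 times, and a difference of the MCAO effect between times. A gene counted as called when its adjusted p (edgeR quasi-likelihood test, Benjamini-Hochberg over 19970 genes) was below 0.01 and its log2 fold change exceeded 0.58 in either direction. No channel gene was called at 3 h, 12 h or 24 h in either comparison, where 0.0351%, 0.29% and 0.0551% of all genes were called against sham and 0.155%, 0.776% and 0.295% against control. At an unadjusted p under 0.05 there were 4, 10 and 7 of 67 against sham (8.17%, 14.2% and 8.59% of all genes) and 7, 13 and 12 of 67 against control (8.98%, 15.7% and 10.8% of all genes). At day 3, 0 of 67 were called against sham (background 3.91%) and 1 against control (background 2.97%). At an unadjusted p under 0.05 these were 19 (21.4% of all genes) and 17 (19.6% of all genes). At day 7, 4 of 67 were called against sham, all lower (3.32% of all genes in either direction and 1.41% lower), and 2 of 67 against control, both lower (background 1.3%), with 25 (23.2% of all genes) and 24 (14.7% of all genes) at an unadjusted p under 0.05. No channel gene was called higher in any comparison.

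The losses were small and spread over many genes. The median log2 fold change of the 67 genes against sham was −0.07, −0.13, −0.16, −0.35 and −0.32 at 3 h, 12 h, 24 h, day 3 and day 7, while the median over all genes tested lay between 0.00 and 0.06. At day 3, 53 of 67 had a fold change below 0, against 48.3% of all genes, and in 8 of 67 every MCAO library lay below every sham library (2.81% of all genes did so). At day 7 these counts were 42 of 67 (45.4% of all genes) and 15 of 67 (5.11% of all genes). The 2 channel genes that lay above sham in every MCAO day 7 library were Hcn3 and Kcnd3, where 5.38% of all genes did so. With an adjusted p under 0.05 and no fold threshold, 14 of 67 were lower and 1 was higher at day 7 (3.89% and 5.05% of all genes), and 5 of 67 were lower and 0 higher at day 3 (1.67% and 6.38% of all genes). The 14 and 5 genes came from the sodium, Kv, silent Kv, EAG-related, KCNQ and calcium channel classes.

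**Figure D2:**
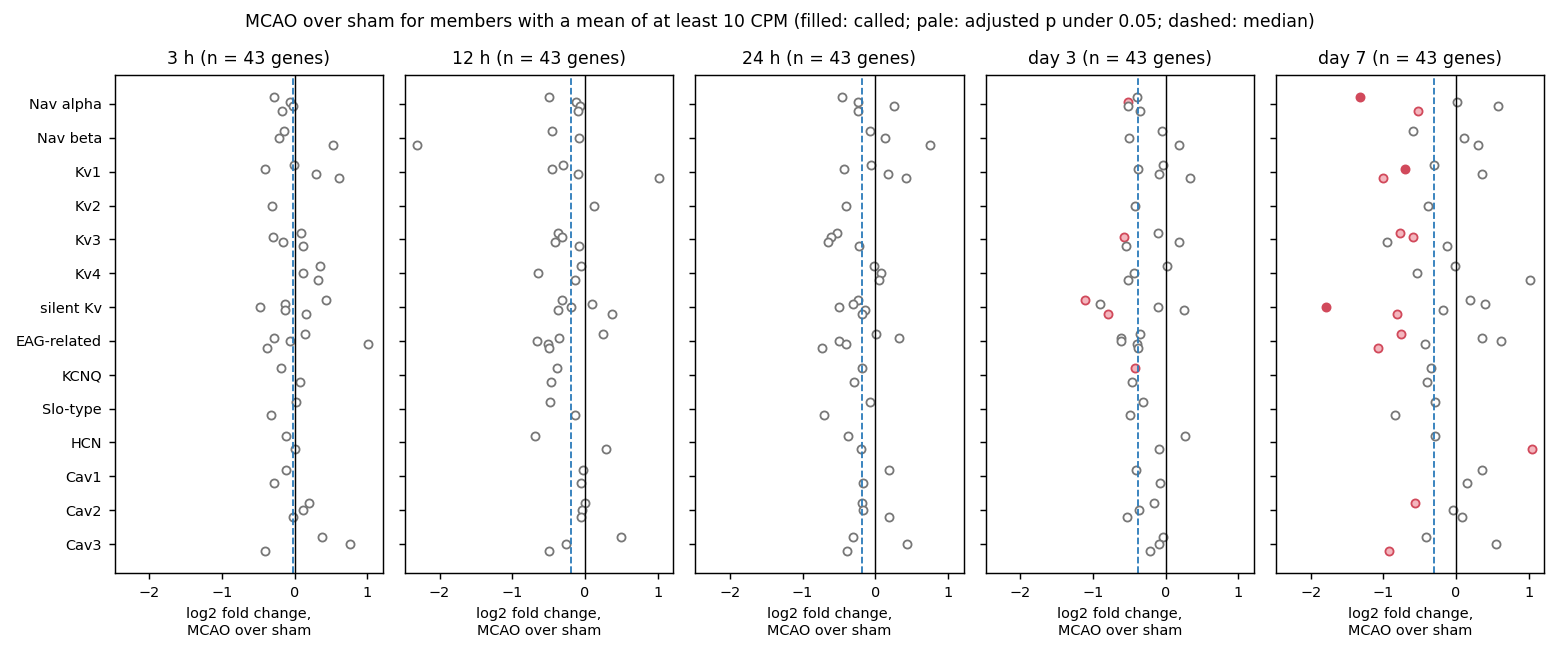
Log2 fold change of MCAO over sham at each time for 43 channel genes that averaged 10 CPM or more in the 48 libraries, by class. Each point is a gene, filled where it was called and pale where its adjusted p was under 0.05, and the dashed line is the median of the genes drawn, which lies at −0.03 at 3 h and at −0.30 at day 7.

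Scn1a was the sodium channel gene called. It encodes the alpha subunit that carries the sodium current of fast-spiking inhibitory neurons and lies on chromosome 2 (66270778 to 66440840, minus strand, GRCm38). The 5 MCAO day 7 libraries, replicates A to E, held 75.6, 110, 78.5, 73.9 and 132 CPM, and the 4 sham day 7 libraries held 249, 179, 220 and 291 CPM. The groups did not overlap, and all 5 MCAO libraries were also below the 168 to 319 CPM of control cortex. The log2 fold change was −1.32 (SE 0.28, edgeR adjusted p = 0.0022) against sham and −1.34 (SE 0.28, adjusted p = 0.0039) against control. At 3 h, 12 h, 24 h and day 3 the fold changes against sham were −0.29, −0.50, −0.46 and −0.40, none called, and the mean effect over the 5 times was −0.59 (SE 0.13, adjusted p = 0.00075).

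Scn8a, more abundant than Scn1a, moved less. It held 284 to 418 CPM in MCAO day 7 against 452 to 574 CPM in sham day 7, with no overlap, and its log2 fold change of −0.53 (SE 0.13, adjusted p = 0.0046) passed the p threshold but not the fold threshold. Scn2a had its lowest mean at day 3, at 338 ± 97.0 CPM against 484 ± 72.2 CPM in sham (log2 fold change −0.52, adjusted p = 0.012). The 5 MCAO day 3 libraries ranged from 260 to 480 CPM and overlapped the 389 to 560 CPM of sham. At day 7 Scn2a was at 373 ± 62.1 CPM against 371 ± 29.0 CPM in sham, a log2 difference of 0.01. Scn3a, the alpha subunit of the developing brain, was at 91.6 ± 23.3 CPM in MCAO day 7 and 61.5 ± 19.5 CPM in sham day 7 (0.58, SE 0.25, adjusted p = 0.15). Control cortex held 90.7 ± 26.1 CPM of Scn3a, close to MCAO day 7 and above the mean of sham day 7.

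The beta subunits bind the alpha subunits and set their gating and placement. Scn4b, a beta subunit abundant in striatum, varied widely between libraries. It ran from 55.2 to 184 CPM in control, from 43.2 to 160 CPM in sham 12 h and from 1.48 to 36.5 CPM in MCAO 12 h (log2 fold change −2.31, SE 1.02, adjusted p = 0.28). Of the 7 striatal marker genes, 6 were tested. These 6 had a median log2 fold change of −1.52 in the same comparison, with 0 of 6 called. They summed to 568 to 2035 CPM in sham 12 h and 358 to 1315 CPM in MCAO 12 h. Their part in the Scn4b value was not tested.

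Kv1 genes encode low-threshold potassium channels of axons. Kcna2, on chromosome 3 (107101146 to 107115005, plus strand), held 153, 135, 95.2, 140 and 163 CPM in MCAO day 7 replicates A to E and 248, 164, 215 and 270 CPM in sham day 7 replicates A to D. The highest MCAO library (163.4 CPM) lay just under the lowest sham library (163.8 CPM). The log2 fold change was −0.71 (SE 0.18, adjusted p = 0.0079) against sham and −0.82 (SE 0.18, adjusted p = 0.0044) against control. Kcna2 was below sham at every time, by −0.40, −0.45, −0.44 and −0.38 at 3 h, 12 h, 24 h and day 3. Its mean effect of −0.47 (SE 0.08) had the lowest adjusted p of all 67 genes, 1.7e-05, but lay under the fold threshold. Kcna1, its common partner, was at 110 ± 29.1 CPM in MCAO day 7 and 136 ± 23.8 CPM in sham (−0.30, SE 0.25, adjusted p = 0.51).

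Kcna6 had the lowest p of the 67 genes in the test of a difference between times. At 12 h the MCAO libraries held 291, 145, 136, 139 and 172 CPM and the sham libraries 108, 105, 38.8 and 99.7 CPM, with every MCAO library above every sham library (log2 fold change 1.02, SE 0.30, adjusted p = 0.081). At day 7 the order was the opposite: 45.6, 94.2, 69.0, 71.0 and 77.7 CPM in MCAO against 114, 164, 107 and 187 CPM in sham (−0.999, SE 0.30, adjusted p = 0.027). The test of a difference between the 5 times gave an adjusted p of 0.031 for Kcna6, which is over 0.01, and 0 of 67 channel genes were called in it (background 0.451% of all genes, and 15 of 67 at an unadjusted p under 0.05, beside 17.3% of all genes). The sham day 7 mean of Kcna6, 143 CPM, was itself higher than the control mean of 93.5 CPM, and against control the day 7 change was −0.39 (adjusted p = 0.62).

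The Kv2, Kv3 and Kv4 classes carry the delayed-rectifier, the fast high-threshold and the transient A-type currents. The 4 Kv3 genes had fold changes below 0 at 12 h, 24 h and day 7, with medians of −0.35, −0.57 and −0.68 against sham. Kcnc2 was at 45.3 ± 9.34 CPM in MCAO day 7 and 68.2 ± 9.35 CPM in sham (−0.59, SE 0.19, adjusted p = 0.037), and at 42.8 ± 10.98 CPM against 63.9 ± 2.21 CPM at day 3 (−0.58, SE 0.19, adjusted p = 0.044). Its mean effect of −0.48 (SE 0.09, adjusted p = 3.7e-05) was the second lowest by p of the family. Kcnc1 was at 158 ± 30.9 CPM in MCAO day 7 and 268 ± 90.3 CPM in sham (−0.76, SE 0.23, adjusted p = 0.029). Kcnd2 was below every sham library at 12 h (97.0 to 167 CPM against 172 to 259 CPM) and at day 7 (101 to 170 CPM against 175 to 222 CPM), with log2 fold changes of −0.64 (adjusted p = 0.12) and −0.53 (adjusted p = 0.11). Kcnd3 was instead above every sham library at day 7, at 31.9 to 54.8 CPM against 18.2 to 23.4 CPM (1.02, SE 0.35, adjusted p = 0.053). The control libraries held 17.3 to 40.5 CPM of Kcnd3 (mean 31.6 CPM), which overlapped MCAO day 7.

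Silent Kv subunits form no channel alone and modify Kv2 channels. Kcns1, on chromosome 2 (164163619 to 164171113, minus strand), had the steepest called fall. MCAO day 7 replicates A to E held 2.88, 6.62, 4.16, 4.80 and 6.26 CPM, and sham day 7 replicates A to D held 18.3, 10.7, 16.9 and 23.3 CPM. These values rest on 5 to 13 counts per MCAO library and 23 to 51 per sham library. The log2 fold change was −1.79 (SE 0.41, adjusted p = 0.0037) against sham and −1.54 (SE 0.42, adjusted p = 0.027) against control, and at day 3 it was −0.11 (adjusted p = 0.92). Kcnv1, a silent subunit enriched in cortex, was at 45.2 ± 12.5 CPM in MCAO day 7 and 79.2 ± 8.05 CPM in sham with no overlap (−0.81, SE 0.25, adjusted p = 0.035), and at 44.8 ± 10.9 CPM against 77.4 ± 16.2 CPM at day 3 (−0.79, SE 0.25, adjusted p = 0.039). Kcnf1 held 41.1, 26.2, 7.99, 27.3 and 32.2 CPM in MCAO day 3 against 50.04, 55.4, 71.5 and 56.7 CPM in sham day 3 (−1.11, SE 0.34, adjusted p = 0.034), then 42.8 ± 12.1 CPM against 37.6 ± 12.7 CPM at day 7.

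**Figure D3:**
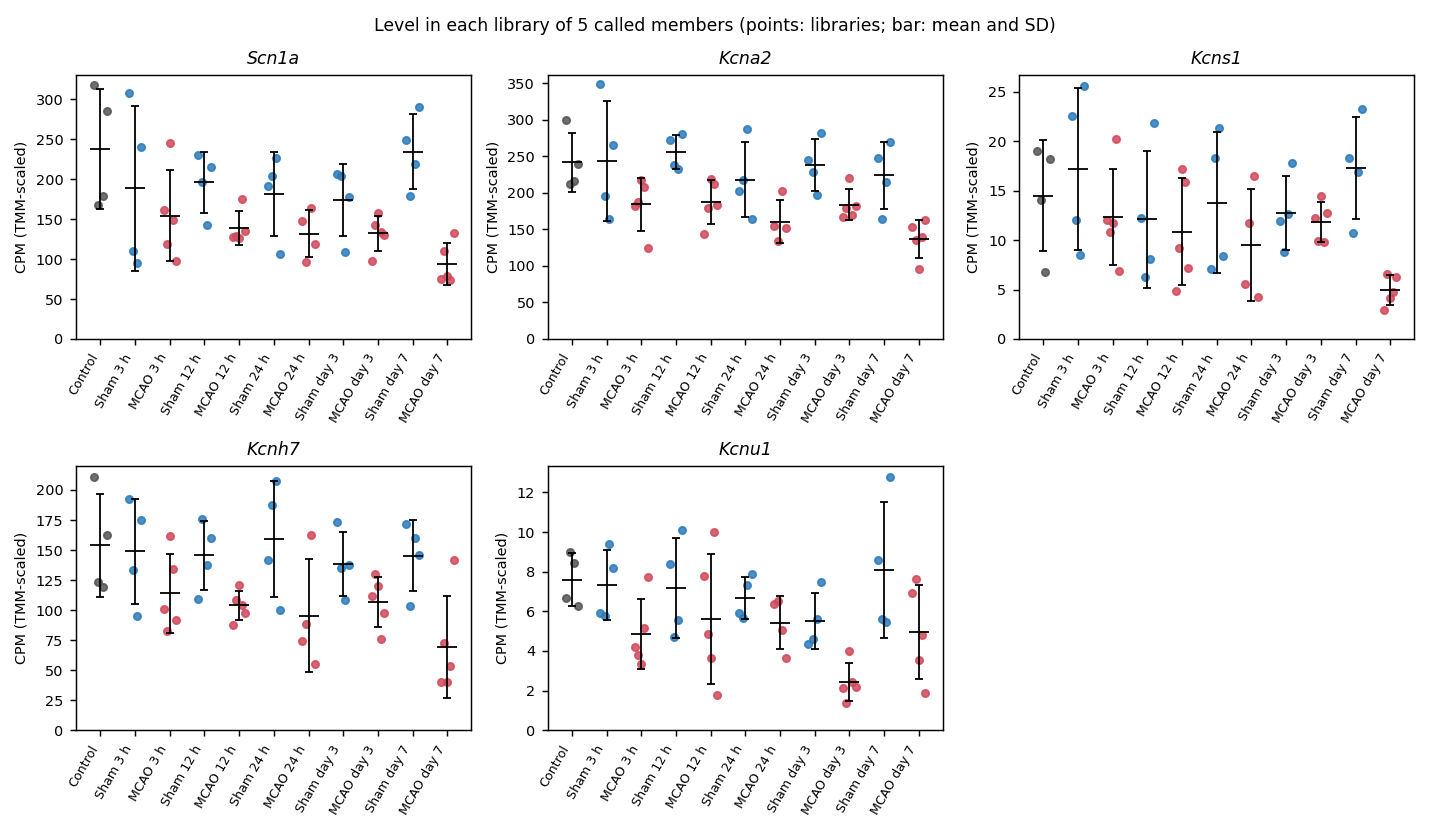
CPM in each library of 5 called channel genes in all 11 groups, with the mean and SD of each group. The MCAO day 7 libraries of Scn1a (73.9 to 132 CPM) and Kcns1 (2.88 to 6.62 CPM) lie below every sham day 7 library.

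The EAG-related genes encode slow and inwardly rectifying Kv channels of the EAG, ERG and ELK groups. Kcnh7, an ERG channel on chromosome 2 (62693414 to 63184287, minus strand), was below sham at all 5 times, by −0.38, −0.49, −0.73, −0.37 and −1.07, and its mean effect of −0.61 (SE 0.13, adjusted p = 0.0009) was called. In the mean effect 2 of 67 channel genes were called, Kcnh7 and Scn1a, both lower, beside 4.76% of all genes in either direction and 0.361% lower. At day 7 the MCAO libraries held 39.8, 72.8, 39.9, 53.3 and 142 CPM, and the sham libraries held 172, 104, 160 and 146 CPM. MCAO replicate E, at 142 CPM, lay inside the sham range, and the other 4 lay below it. The Gca gene overlaps the 3′ end of Kcnh7 on the opposite strand, and the strand setting of the counting is not given in the sources used here. Kcnh1, an EAG channel, was at 96.0 ± 25.8 CPM in MCAO day 7 and 163 ± 32.2 CPM in sham with no overlap (−0.76, SE 0.20, adjusted p = 0.012). Kcnh3, an ELK channel, had sham means of 103 CPM at 12 h, 214 CPM at day 3 and 85.9 CPM at day 7, and MCAO means of 65.5, 139 and 131 CPM. Hhat and Mcrs1 likewise overlap the 3′ ends of Kcnh1 and Kcnh3 on the opposite strand.

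KCNQ genes encode the M-current. Kcnq3 encodes an M-channel subunit. It lay below every sham library at day 3 (214 to 266 CPM against 288 to 313 CPM) and at day 7 (145 to 257 CPM against 260 to 316 CPM), with log2 fold changes of −0.42 (adjusted p = 0.033) and −0.34 (adjusted p = 0.09), and its mean effect was −0.30 (SE 0.06, adjusted p = 0.00016).

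Kcnt1, Kcnt2 and Kcnu1 encode Slo-type channels gated by sodium or pH. Kcnu1, a channel best known from sperm, on chromosome 8 (25849623 to 25937939, plus strand), was the 1 gene called at day 3 against control. MCAO day 3 replicates A to E held 2.14, 1.36, 3.99, 2.44 and 2.20 CPM and control replicates A to D held 6.70, 8.99, 8.46 and 6.26 CPM (log2 fold change −1.63, SE 0.41, adjusted p = 0.0075). This was 3 to 8 counts per MCAO library and 11 to 16 per control library. Against sham day 3, at 4.35 to 7.50 CPM, the change was −1.17 (SE 0.41, adjusted p = 0.069), and at day 7 it was −0.69 (adjusted p = 0.26). Kcnt1 was at 62.5 ± 18.7 CPM in MCAO day 7 and 76.8 ± 14.1 CPM in sham (−0.29, adjusted p = 0.35). Kcnt2 had a mean effect of −0.50 (SE 0.14, adjusted p = 0.0099), under the fold threshold.

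HCN genes encode the hyperpolarisation-activated channels. Hcn2 was at 35.4 ± 10.9 CPM in MCAO day 7 against 43.1 ± 13.7 CPM in sham (−0.29, adjusted p = 0.57). Hcn3 was the 1 channel gene higher at day 7 with an adjusted p under 0.05. MCAO day 7 libraries held 21.9, 16.8, 17.3, 13.0 and 18.8 CPM, and sham libraries held 9.72, 3.27, 10.9 and 10.04 CPM (1.05, SE 0.30, adjusted p = 0.019). Every MCAO library was above every sham library, on 27 to 38 against 7 to 22 counts. Against control, at 12.1 ± 2.61 CPM, the change was 0.53 (adjusted p = 0.41). Pklr overlaps the 3′ end of Hcn3 on the opposite strand.

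Of the 9 calcium channel genes, 0 were called in any comparison by edgeR. The 3 Cav1 genes, the L-type channels, had a median log2 fold change of 0.35 at day 7. Of these, Cacna1f had 0 or 1 counts in each day 7 library, so its fold change carries little weight. Cacna1d was at 120 ± 12.9 CPM in MCAO and 108 ± 15.2 CPM in sham (0.16, adjusted p = 0.57). Of the presynaptic Cav2 genes, Cacna1a was at 220 ± 38.7 CPM in MCAO day 7 and 326 ± 44.5 CPM in sham (−0.57, SE 0.16, adjusted p = 0.018), and Cacna1e was at 179 ± 33.5 CPM against 169 ± 34.9 CPM (0.08, adjusted p = 0.85). Among low-threshold Cav3 genes, Cacna1i was at 25.3 ± 3.19 CPM in MCAO day 7, below all sham libraries at 47.9 ± 11.1 CPM (−0.92, SE 0.30, adjusted p = 0.048). Cacna1g was at 32.2 ± 8.38 CPM against 43.1 ± 9.29 CPM (−0.42, adjusted p = 0.28).

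**Figure D4:**
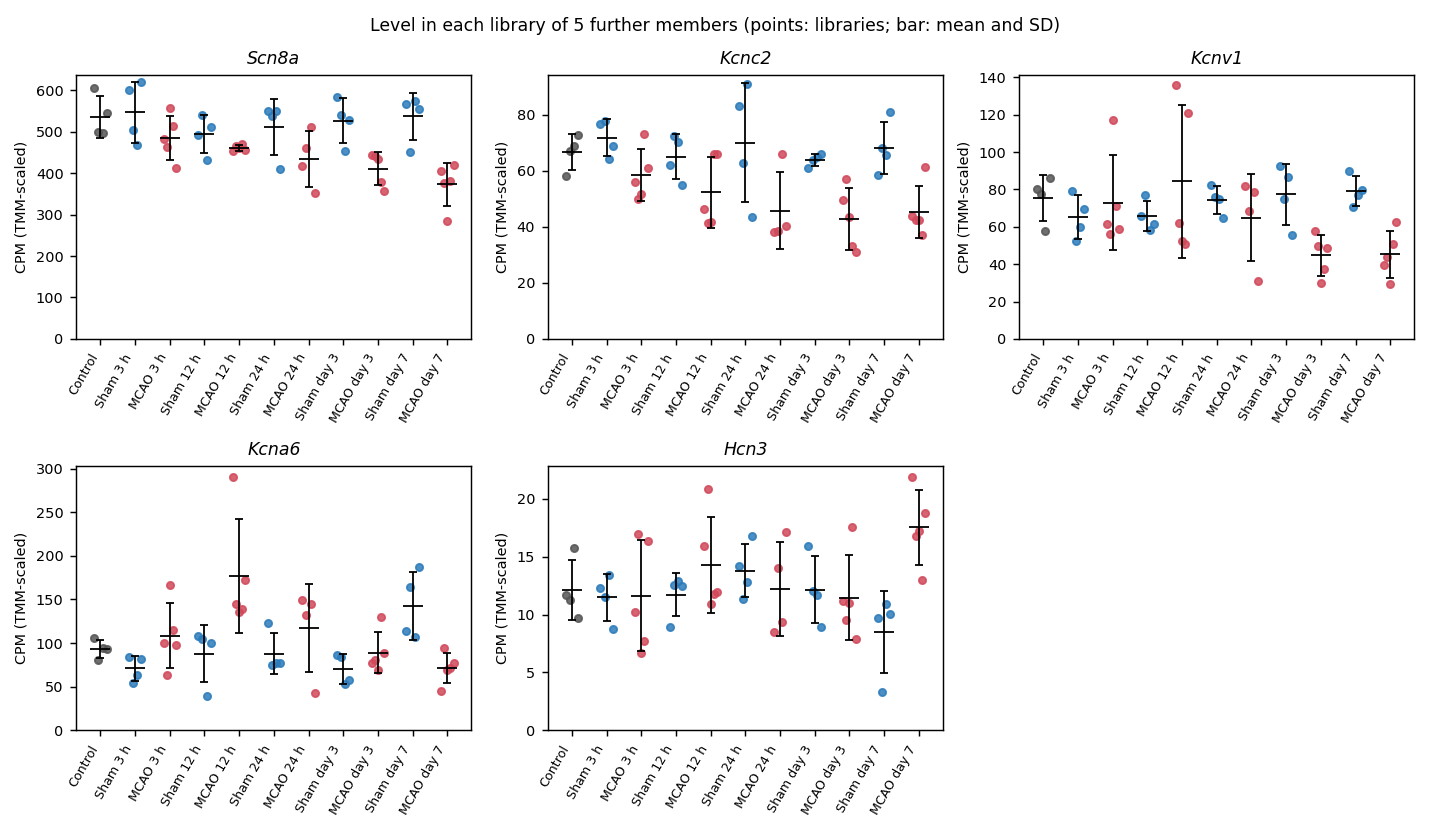
CPM in each library of Scn8a, Kcnc2, Kcnv1, Kcna6 and Hcn3 in all 11 groups, with the mean and SD of each group. Kcna6 lies above sham at 12 h (136 to 291 CPM in MCAO) and below it at day 7 (45.6 to 94.2 CPM), and Hcn3 lies above sham at day 7.

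The mean MCAO effect used all 24 MCAO and 20 sham libraries. With an adjusted p under 0.05 and no fold threshold, 16 of 67 channel genes were lower and 0 higher, where 5.07% of all genes were lower and 9.16% higher. The 16 were Scn1a, Scn2a and Scn8a of the sodium channels, Kcna2, Kcnb2, Kcnc1, Kcnc2, Kcnd2 and Kcns1 of the Kv classes, Kcnh5, Kcnh7, Kcnq3, Kcnq5, Kcnt2 and Kcnu1 of the other potassium channels, and Cacna1i of the calcium channels. Their log2 fold changes ran from −0.69 (Kcnh5) to −0.19 (Scn2a). No HCN and no sodium beta gene was among them, and Scn2b was at −0.26 (adjusted p = 0.058). Against control, the mean of the 5 sham groups had 0 of 67 channel genes called (background 0.02% of all genes), with 0 of 67 at an unadjusted p under 0.05 (4.61% of all genes) and a median log2 fold change of −0.01.

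**Figure D5:**
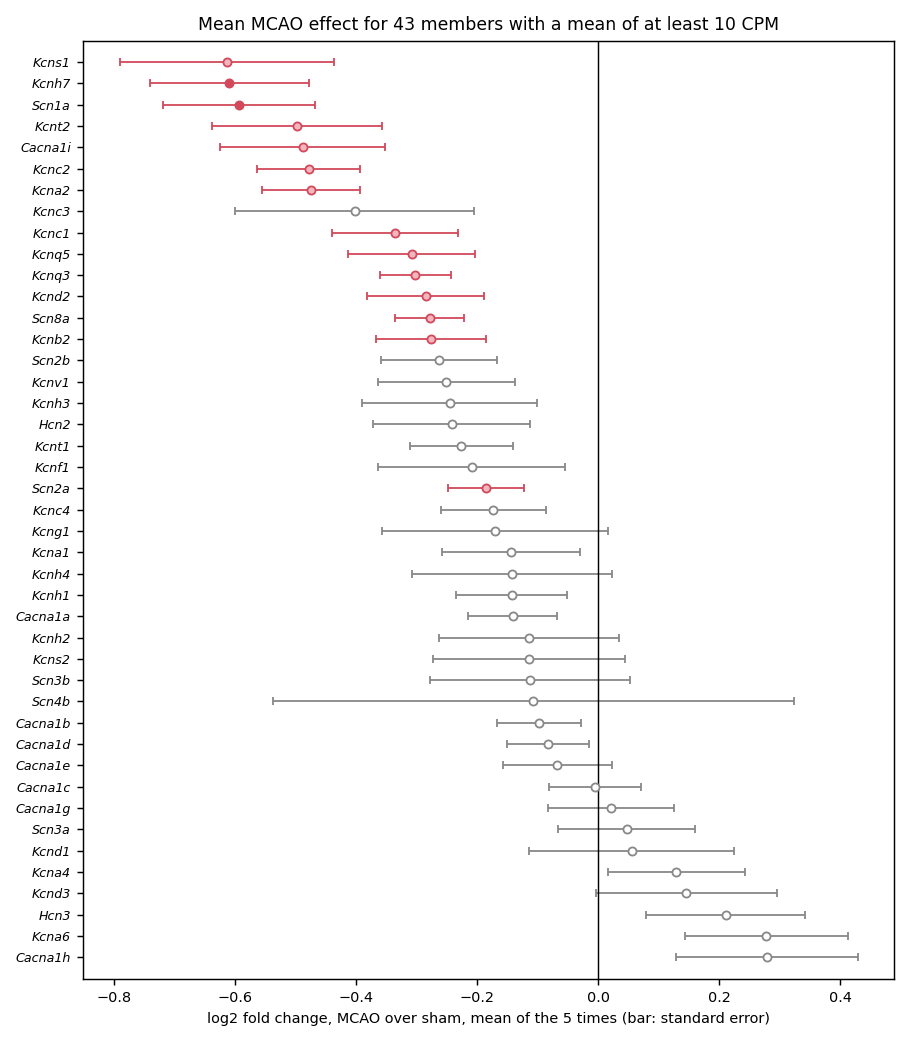
Mean log2 fold change of MCAO over sham across the 5 times, with its standard error, for 43 channel genes that averaged 10 CPM or more. Kcnh7 and Scn1a (filled) were called, pale points had an adjusted p under 0.05, and 35 of the 43 lie below 0.

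The upstream sequences of Scn1a, Kcns1 and Kcnh7 are shown because these genes had the steepest called falls and an entry in the RefSeq promoter table (GRCm38.p6) lying at the start of the gene model. Of the 70 genes, 44 had an entry, with 54 windows of 300 bases in all. Bases run 5′ to 3′ on the gene's strand and stop at the gene model, and capitals mark CCAAT or GGGCGG on either strand.
Scn1a, chr2:66440841-66441087, minus strand: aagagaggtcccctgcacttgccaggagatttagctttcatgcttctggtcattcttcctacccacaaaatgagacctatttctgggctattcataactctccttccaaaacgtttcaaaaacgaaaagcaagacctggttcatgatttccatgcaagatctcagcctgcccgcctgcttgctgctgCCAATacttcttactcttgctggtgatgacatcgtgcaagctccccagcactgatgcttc
Kcns1, chr2:164171114-164171363, minus strand: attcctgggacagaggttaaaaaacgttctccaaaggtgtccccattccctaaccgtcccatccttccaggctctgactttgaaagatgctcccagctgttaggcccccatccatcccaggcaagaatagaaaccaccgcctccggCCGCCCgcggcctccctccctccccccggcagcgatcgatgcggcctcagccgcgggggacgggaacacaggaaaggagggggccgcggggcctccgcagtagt
Kcnh7, chr2:63184288-63184537, minus strand: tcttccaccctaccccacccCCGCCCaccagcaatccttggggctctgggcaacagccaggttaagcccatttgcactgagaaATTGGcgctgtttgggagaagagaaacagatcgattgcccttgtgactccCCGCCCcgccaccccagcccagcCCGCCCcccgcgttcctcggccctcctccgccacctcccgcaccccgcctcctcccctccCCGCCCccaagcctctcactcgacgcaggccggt

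The 250 bases upstream were 46.8% G and C in Scn1a, 63.2% in Kcns1 and 67.6% in Kcnh7. Over the whole windows of 300 bases, a longer stretch, the median was 62.7% for the channel genes and 52.7% for all 32851 windows. GGGCGG, the GC box, was in 46.3% of the channel windows and 35.7% of all windows, and CCAAT was in 25.9% and 37.4%. TATAAA was in 3.7% of the channel windows, those of Cacna1d and Scn2a, and in 13.6% of all windows. The full cAMP response element TGACGTCA was in 0 of the 54 channel windows and 1.79% of all windows. A match is only a match of letters in this window.

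Genes that work with these channels were also tested. Of 37 auxiliary subunit genes, 34 were tested, and 4 were called lower and 1 higher at day 7 against sham (3.32% of all genes in either direction and 1.41% lower). The 4 were Cacnb4, a calcium channel beta subunit (−1.05, adjusted p = 0.0005), Cacng2 (−0.82, adjusted p = 0.0064), Kcnab2, the beta subunit of Kv1 channels (−0.72, adjusted p = 0.0054), and Pex5l, which traffics HCN channels (−0.72, adjusted p = 0.0047). Kcne1l was higher (2.84). At day 3, Fgf13, which binds sodium channels, was the 1 called (−0.79, adjusted p = 0.0097), where 3.91% of all genes were called. Of 9 genes of the axon initial segment and node, 0 were called at any time against sham by edgeR, and 0 had an adjusted p under 0.05 at day 3 or day 7. Of 27 tested inward rectifier, tandem-pore and calcium-activated potassium channel genes, 2 were called lower at day 7, Kcnj9 (−1.26) and Kcnk1 (−0.79), and 1 higher, Kcnn3 (1.35). At day 3 Kcnj16, a glial inward rectifier, was the 1 called, higher by 0.80.

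Markers of neurons were tested beside these genes. Among the 10 neuronal markers the median log2 fold change against sham was −0.22 at day 3 and −0.34 at day 7, with 1 and 2 of 10 called lower and a range at day 7 from −0.97 (Nefm) to 0.05 (Map2). The medians of the channel genes were −0.35 and −0.32. The median of the 8 cortical excitatory markers was −0.89 at day 7 with 2 called lower, among them Rorb (−1.35), and of the 6 inhibitory markers Pvalb (−2.36, adjusted p = 0.0091) and Vip (−1.59) were called lower while Gad1 and Gad2 were at 0.56 and 0.61, not called. Microglial markers rose, with 4 of 6 called higher at day 3 and 2 of 6 at day 7, as did myeloid markers (5 and 3 of 6). Divided by the summed neuronal markers of its own library, Scn1a was 1.09% ± 0.26 (SD, n = 5) in MCAO day 7 and 2.16% ± 0.36 (n = 4) in sham day 7, with no overlap, and Kcns1 was 0.0575% ± 0.017 and 0.159% ± 0.042, with no overlap. On the same scale Kcna2 (1.48% to 1.68% against 1.60% to 2.40%) and Scn8a (4.04% to 4.45% against 4.40% to 5.28%) overlapped. At day 3 Scn1a was 1.63% ± 0.46 in MCAO and 1.60% ± 0.36 in sham.

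Single libraries decided several calls at day 7. Without MCAO day 7 replicate C, the library rich in myeloid and fibroblast markers, 0 of 67 channel genes were called against sham and 262 of all genes were, in place of 664, and 6 channel genes were lower with an adjusted p under 0.05 in place of 14. Without sham day 7 replicate D these counts were 0, 180 and 4. Scn1a stayed called in 7 and Kcns1 in 5 of the 9 fits that each left out 1 library, and both kept an adjusted p under 0.05 in all 9, with log2 fold changes from −1.49 to −1.21 and from −1.97 to −1.62. Kcna2 stayed called in 3 of these 9 fits, with an adjusted p up to 0.057. Without MCAO day 7 replicate B or sham day 7 replicate A, 2 of 67 were called. The count over all genes is not given for these fits or for those against control that follow. Against control, the day 7 count fell from 2 to 0 without MCAO replicate C, control replicate A or control replicate D, and to 1 without MCAO replicate A or D. Kcnu1 at day 3 against control stayed called in 1 of 9 such fits, with log2 fold changes from −1.888 to −1.497. At day 3, leaving out MCAO replicate A, the library low in myeloid markers, took the called channel genes against sham from 0 to 4 (1 without MCAO replicate B or sham replicate D) and the called genes of all 19970 from 780 to 1342, and took the channel genes lower with an adjusted p under 0.05 from 5 to 11. The mean effects of Scn1a, Kcna2, Kcnc2, Kcnh7, Kcnq3 and Scn8a kept an adjusted p under 0.01 in all 44 such fits. A call also needs the fold threshold. With it, the mean effect of Scn1a stayed called in 33 of the 44 fits, with log2 fold changes from −0.64 to −0.52. That of Kcnh7 stayed called in 42 of the 44, from −0.71 to −0.58.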

How the data were processed

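QuantSeq 3′ (FWD) libraries with ERCC spike-ins were sequenced from brain tissue RNA of 48 mice, with 24 MCAO, 20 sham and 4 control libraries. The authors trimmed the reads, removed ribosomal reads, aligned them with STAR 2.5.2b to GRCm38 and counted whole reads per Gencode vM8 gene with HTSeq, and the deposited counts were used as they stood. The strand setting is not given in the sources used here. Within their last 2000 bases, 10 of the 70 genes overlap a gene on the opposite strand. Those reported in the text are Kcnh1, Kcnh3, Kcnh7, Hcn3, Cacna1d, Kcnt2 and Scn2b. The deposited normalized matrix was not used. Symbols came from the Gencode vM21 tables (46488 of 46983 IDs matched), which also gave coordinates. In the labels each replicate is a separate sample, and no pair of libraries was identical. Whether they were separate animals is taken from the study's methods.

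Genes with more than 10 counts in all (19970) were fitted in 1 model of 11 groups with edgeR 4.0.16 in R 4.3.3 (TMM, quasi-likelihood, robust), and p-values were adjusted by Benjamini-Hochberg. CPM are counts scaled to the library total with TMM factors (0.923 to 1.05). Levels in the text rest on 1522668 to 2826735 counts per library, and a gene under about 10 CPM rests on few counts. Fits were tested on simulated data. Alternatives covered DESeq2 1.42.0, its size factors, low-count filters, spike-in scaling, the replicate letter, smaller fits and leaving out each library. The replicate letters did not pair the libraries: same-letter correlations of deviations ran from −0.26 to 0.23. The 70 genes, the lists and the rule for the genes named (those called, the most abundant of each class, and the second of 5 classes) were chosen with earlier results of these data known. Kcnc2, Kcna6, Kcnd3, Kcnf1, Kcnh3, Kcnh5, Kcnt2, Kcnq5, Kcnb2, Hcn3, Cacna1f, Cacna1i, Scn2b, Scn3a and Scn4b were named after their values were seen. Some genes that the rule names are counted in the totals but not reported here.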

Additional observations from a re-analysis of the deposited data

Results flagged for a closer look

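Among 209 pairs of a named gene and a group, 8 had a library that stood far from the rest of its group by Dixon's gap test at the 95% level, and chance gives about 1 in 20. Kcna2 was at 220 CPM in MCAO day 3 replicate C (others 167 to 182). Kcnh1 was at 107 CPM in sham day 3 replicate C (others 140 to 146). Kcnq3 was at 266 CPM in MCAO day 3 replicate A (others 214 to 221) and at 145 CPM in MCAO day 7 replicate C (others 236 to 257). Kcnv1 was at 117 CPM in MCAO 3 h replicate C (others 56.2 to 71.1), and Scn1a at 176 CPM in MCAO 12 h replicate D (others 127 to 136). Scn8a was at 411 CPM in sham 24 h replicate D (others 538 to 550) and at 452 CPM in sham day 7 replicate B (others 556 to 574). Among the 19 genes screened, each of these libraries stood apart for 1.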

How the results depend on the processing

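Called channel genes changed in number with several settings, and none of the called fold changes reversed. Numbers given below without a count over all genes cannot be set beside a background share. With an adjusted p under 0.05 and no fold threshold, the counts were 5 (day 3 against sham), 15 (day 7 against sham), 3 and 8 (day 3 and day 7 against control), 16 (mean effect) and 1 (difference between times). With DESeq2 in place of edgeR they were 1 at day 3 and 9 at day 7 against sham (1033 and 1096 of all genes), 4 at day 7 against control (463 of all genes), 5 in the mean effect (1070 of all genes), 1 in the difference between times (475 of all genes) and 1 at 12 h against control (Kcnh3, 283 of all genes). With spike-in scaling they were 2 at day 7 against sham, 7 at day 3 against control, 4 in the mean effect and 1 at 12 h against control. Under that scaling the median log2 fold change of all genes lay between −0.28 and 0.14. The median of the channel genes was below it in all 10 comparisons with MCAO at a single time. Such scaling shifts all genes of a library alike, so this gap could hardly change and is no separate evidence. With no filter on low counts, and with only the compared groups in the fit, day 3 against control had 0, and the latter had 1 at 24 h against control. The replicate letter was also used as a block, which the data gave no ground for. The counts were then 0 at day 3 against control (485 of all genes) and 1 at day 7 against control (192 of all genes). They were 1 in the mean effect (782 of all genes) and 3 at day 7 against sham (547 of all genes). Leaving out 1 library gave 0 to 4 at day 3 against sham, 0 to 6 at day 7 against sham, 0 to 1 and 0 to 3 at day 3 and day 7 against control, 0 to 4 in the mean effect and 0 to 1 in the difference between times. The mean effect had 0 called without sham 24 h replicate C or sham 3 h replicate A, and the difference between times had 1 without MCAO 24 h replicate D. The 3 h, 12 h and 24 h comparisons with sham stayed at 0 under every setting. Causes were not tested. Scn1a and Kcns1 at day 7 against sham were called in all 8 alternatives that kept every library, and Kcna2 in 5. Of the 8, 1 was the main fit read at an adjusted p under 0.05 with no fold threshold, which every called gene passes by construction. Genes under about 10 CPM rested on few counts, which limits what could be detected for them.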

Other observations

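Among the 24 control and sham libraries, Scn1a rose and fell with a set of other channel genes. Over log2(CPM + 1) values taken as deviations from the group mean, and in 41 relations computed with other channel genes and gene lists, Scn1a was related to Kcna2 (Pearson r = 0.887, permutation p = 1e-05, adjusted 6.83e-05; Spearman rho = 0.877, permutation p = 2e-05, adjusted 0.000205), Scn8a (r = 0.881, permutation p = 1e-05; rho = 0.801, permutation p = 4e-05, adjusted 0.000234) and Kcnc1 (r = 0.866, permutation p = 1e-05; rho = 0.900, permutation p = 1e-05). The smallest p that 100000 permutations can give is 1e-05. The permutations moved deviations across all 24 libraries, although deviations sum to 0 within each group. These p-values are therefore approximate and may be too small. Without the 2 libraries farthest from the median of Scn1a, r was 0.846, 0.841 and 0.854. The summed neuronal markers were related to Scn1a nearly as closely (r = 0.852, permutation p = 1e-05; rho = 0.806, permutation p = 3e-05), and the fibroblast markers inversely (r = −0.720, permutation p = 2e-05; rho = −0.717, permutation p = 0.00012). Cacna1e went the other way (r = −0.656, permutation p = 0.00053, adjusted 0.00155; rho = −0.638, permutation p = 0.0013, adjusted 0.00355), and Scn2a did not pass (r = −0.255, permutation p = 0.23, adjusted 0.293; rho = −0.288, permutation p = 0.17, adjusted 0.212). These libraries share their normalization, and the labels give no batch.

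Summed over all 67 genes, the channel genes took 59.1 CPM for each 100 CPM of neuronal markers in MCAO day 7 (SD 2.82, n = 5), 68.6 in sham day 7 (SD 9.07, n = 4), 67.8 in MCAO day 3 (SD 7.68, n = 5), 61.3 in sham day 3 (SD 1.81, n = 4) and 68.0 in control (SD 5.44, n = 4), with overlapping ranges of 55.6 to 62.5 and 62.1 to 82.0 at day 7.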
